A study of Mus musculus with 10 samples.

Results

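The locus of Nf1 on mouse chromosome 11 was examined in 10 BCR-ABL1 leukemias with probes spaced 230 bp apart in the median. All 1533 probes placed by the scanner files between 79030000 and 79480000 (mm9) were taken, of 402346 placed probes on the array. Of these, 908 lay in the Nf1 body, set at 79150000 to 79400000, 319 in the proximal flank before it and 305 in the distal flank after it, and 1 crossed a limit. Choosing the probes used position alone and no measured value. No sequence or exon annotation of mm9 was used here, so probes were not assigned to exons, introns or UTRs.

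Nf1 encodes neurofibromin, a GTPase-activating protein that returns RAS from its GTP-bound, active state to its GDP-bound, inactive state. Loss of Nf1 leaves RAS and the kinases below it active for longer, and Nf1 is a tumour suppressor gene of nerve sheath tumours and of myeloid leukemia in children. BCR-ABL1 is a fusion tyrosine kinase that also signals through RAS, and Ikzf1 encodes Ikaros, a zinc finger transcription factor of lymphoid cells. In the RefSeq gene table of GRCm38.p6, used for gene order only, Omg, Evi2, Evi2a and Evi2b lie inside Nf1. Omg encodes a myelin glycoprotein, and the Evi2 genes are named after a site of viral integration in mouse leukemia. Wsb1, which encodes a WD-repeat protein with a SOCS box, is the protein-coding gene before Nf1, and Rab11fip4, which encodes a partner of the RAB11 GTPase, the one after it.

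Genomic DNA from bone marrow leukemia cells that carried GFP was labelled with Cy5 and stage-matched bone marrow DNA without leukemia with Cy3, on 1 array for each tumour. According to the series' design text, B220+ B cells gave the normal DNA. The tumours were 5 labelled Ikzf1+/+, from wildtype mice, and 5 labelled Ikzf1+/-, with 1 Ikzf1 allele altered; both genotypes carried BCR-ABL1. Whether each tumour arose in a different animal is not in the labels, so p-values measure only the spread between these samples. The values are log2 ratios of leukemic over non-leukemic DNA, centred on the autosomal median of each array, on which loss of 1 of 2 copies in every cell would give -1 and gain of 1 copy +0.58. A ratio in bulk DNA cannot tell a change in few cells from a smaller change in many. The Cy3 dye carried the reference on every array, so any dye effect common to the arrays remains in the ratios.

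The tiling of this locus was denser than that of most of the genome. Median spacing was 233 bp in the body, 238.5 bp in the proximal flank and 219 bp in the distal flank, against 5343 bp over the autosomes. Among 23628 windows of 100 kb, 45 were as dense as the 2 that lay fully in the body, which held at least 360 probes each. The probes of body and flanks differed in make-up. Full-length probes of 60 bases made up 66.3% of the body, 37.6% of the proximal flank and 15.7% of the distal flank, and the shortest had 45 bases. The median Cy3 signal was 169 intensity units in the body, 222 in the proximal flank and 267 in the distal flank. In the body 824 of 908 probes (90.7%) were clearly above background, without saturation, in each channel of every array, against 311 of 319 (97.5%) and 304 of 305 (99.7%) in the flanks.

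The Nf1 body lay near the level of 2 copies in all 10 tumours. Its mean log2 ratio was +0.030, -0.023, -0.016, -0.032 and -0.0063 in Ikzf1+/+ tumours 1 to 5. In Ikzf1+/- tumours 1 to 5 it was +0.034, +0.0023, +0.012, +0.017 and -0.0016. As a share of the level in non-leukemic DNA these means ran from 97.8% in Ikzf1+/+ tumour 4 to 102% in the first tumour of each genotype. The values of the 2 genotypes overlapped. Group means were -0.0094 ± 0.0238 in Ikzf1+/+ and +0.013 ± 0.014 in Ikzf1+/- tumours (mean ± SD of 5 tumours per genotype). The difference, Ikzf1+/- minus Ikzf1+/+, was +0.022 and did not pass the test (two-sided exact permutation p = 0.103, adjusted p = 0.103 over the 4 measures of body, each flank and body minus flanks). Its size varied with probe signal: over the 824 probes above background it was +0.0062 (exact p = 0.651), and over the 84 others it was +0.18. These classes were set in part by the tumour's Cy5 signal, so a low ratio can itself place a probe among the 84. The split therefore cannot show which probes the difference rested on. With medians over probes in place of means the difference was +0.0043 (exact p = 0.706). Without Ikzf1+/+ tumour 1 it was +0.032 (exact p = 0.0159). With normexp background correction, a model-based correction from the scanner's spot and background signals, it was +0.035 (exact p = 0.00794), and with centring on chromosome 11 in place of the autosomes +0.039 (exact p = 0.00794).

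In the proximal flank, Ikzf1+/+ tumours lay higher. The flank averaged +0.099, +0.012, +0.034, +0.062 and +0.035 in the Ikzf1+/+ tumours, 1 to 5 in order. The Ikzf1+/- tumours had +0.0002, +0.0024, -0.012, +0.0078 and +0.0093 there. Every Ikzf1+/+ tumour lay above every Ikzf1+/- tumour, with tumours 1 and 4 highest. The means differed by -0.047 (exact permutation p = 0.00794, two-sided, which is as low as 5 against 5 arrays can go, adjusted p = 0.0159). Without the 10 brightest probes of the window it was -0.040 (exact p = 0.0238), and with centring on chromosome 11 it missed the threshold at -0.030 (exact p = 0.0794). It did the same over full-length probes only, at -0.046 (exact p = 0.0794). After normexp correction the direction turned to +0.10 (exact p = 0.0317). The distal flank averaged +0.026 ± 0.010 in Ikzf1+/+ and +0.014 ± 0.0075 in Ikzf1+/- tumours (mean ± SD of 5 tumours per genotype). Its difference of -0.012 did not pass (exact permutation p = 0.0794, adjusted p = 0.103), and normexp correction turned it to +0.22 (exact p = 0.00794). Without Ikzf1+/+ tumour 3 it was -0.015 (exact p = 0.0476), and over full-length probes +0.017 (exact p = 0.397).

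Setting the body against its own flanks removes offsets that a whole array or chromosome shares. Body minus both flanks was -0.036, -0.048, -0.041, -0.072 and -0.037 in Ikzf1+/+ tumours 1 to 5. In Ikzf1+/- tumours 1 to 5 it was +0.033, -0.0047, +0.011, +0.0029 and -0.016. The body therefore lay below its flanks in 5 of 5 Ikzf1+/+ and 2 of 5 Ikzf1+/- tumours, and the groups did not overlap. Means were -0.047 ± 0.015 and +0.0051 ± 0.0184 (mean ± SD of 5 tumours per genotype), a difference of +0.052 (two-sided exact permutation p = 0.00794, adjusted p = 0.0159). Of 5 slides 4 held a single genotype, so slide and genotype largely cannot be told apart. On the slide that held both, Ikzf1+/- tumour 1 lay +0.070 above Ikzf1+/+ tumour 5. The difference was +0.038 over probes above background, +0.057 over full-length probes (exact p = 0.0238), +0.047 without the brightest probes, +0.031 after loess within arrays (exact p = 0.0238) and +0.028 with medians over probes (exact p = 0.0159).

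Normexp correction turned this difference round, to -0.13 (exact permutation p = 0.0238), with means of -0.0084 in Ikzf1+/+ and -0.13 in Ikzf1+/- tumours. Under it, body minus flanks was +0.11, +0.042 and +0.025 in Ikzf1+/+ tumours 1, 2 and 4 and -0.11 in each of Ikzf1+/+ tumours 3 and 5. These first 3 arrays were the ones with the lowest median Cy5 signal over the autosomes, 89.4, 94.1 and 108 intensity units. Ikzf1+/+ tumours 3 and 5 had 160 and 155, and the Ikzf1+/- tumours 203 to 230. The median Cy3 signal was 167 to 182 in Ikzf1+/+ and 148 to 168 in Ikzf1+/- arrays. Signal level thus moved with genotype, and its part in the difference was not tested.

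Over all 10 tumours, body minus both flanks averaged -0.021 and lay below 0 in 7 of 10 arrays, which did not pass (two-sided exact sign-flip permutation p = 0.0645, adjusted p = 0.0967 over 3 contrasts). Without Ikzf1+/- tumour 1 or 3 the mean was -0.027 or -0.024 (exact p = 0.0234 and 0.0391). Against the proximal flank alone the body lay at -0.023 (exact permutation p = 0.104), and against the distal flank alone at -0.018, below 0 in 9 of 10 arrays (exact permutation p = 0.0547). After normexp correction the 3 contrasts were -0.071 (exact p = 0.0547), -0.063 (exact p = 0.0156) and -0.080 (exact p = 0.0938). After loess they were -0.0081, -0.012 and -0.0036, and with medians over probes -0.010, -0.012 and -0.0074. Without Ikzf1+/- tumour 1 the contrasts with the proximal and the distal flank were -0.030 (exact p = 0.043) and -0.024 (exact p = 0.00391).

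Within the body the difference between genotypes was not even. Over the 5 consecutive parts of 50 kb, Ikzf1+/- minus Ikzf1+/+ was +0.024, +0.045, +0.053, +0.011 and -0.023. The third part, from 79250222 to 79299872 with 178 probes, had -0.0064, -0.065, -0.031, -0.076 and -0.0054 in Ikzf1+/+ tumours 1 to 5. The Ikzf1+/- tumours had +0.030, +0.0067, +0.0062, +0.031 and +0.0060 there. All 5 Ikzf1+/- tumours lay above all Ikzf1+/+ tumours in that part, whereas the genotypes overlapped in the other 4. How often the genotypes fail to overlap over 50 kb elsewhere on the array was not counted, so that part cannot be called unusual. These parts were not tested. For scale, among the 45 densely tiled windows of 100 kb the difference ran from -0.11 to +0.13 with a median of +0.0038, and 14 of them lay at or above the body's +0.022.

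Copy number segments were sought on each array separately, as stretches of at least 5 probes with an absolute mean of at least 0.3. A call lay in 1 of 10 tumours, Ikzf1+/+ tumour 1, and the other 9 had none in body or flanks. That tumour had 2 calls: a gain at the proximal edge and a short loss inside the body. The count of tumours with a call in the body was also 1 at thresholds of 0.2 and 0.5, and 0 after normexp correction or over probes above background only. The last filter uses tumour Cy5 signal, so a loss can remove its own probes.

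The gain ran from 79018025 to 79068238 (50.2 kb), ahead of the Nf1 body. Over its 62 probes in the window Ikzf1+/+ tumours 1 to 5 had +0.33, +0.058, +0.057, +0.20 and +0.062. Ikzf1+/- tumours 1 to 5 had -0.056, -0.019, -0.020, +0.0014 and +0.018. The mean included the bright probe at 79056930. Without that probe Ikzf1+/+ tumours 1 to 5 had +0.29, +0.034, +0.047, +0.16 and +0.047, so tumour 1 fell below the threshold of 0.3, and with all the brightest probes left out the gain was not called. It was not called after normexp correction either. Over probes above background only, the gain was still called, with the same limits and a mean of +0.327 over 61 probes. Ikzf1+/+ tumour 4 lay second highest, in a segment from 78701825 to 79069276 that averaged +0.16 and stayed below the threshold. In the other 257 probes of the proximal flank the Ikzf1+/+ tumours lay at +0.044, +0.00089, +0.029, +0.029 and +0.029, and the Ikzf1+/- tumours at +0.014, +0.0075, -0.0099, +0.0093 and +0.0073. The difference there was -0.021, with overlap between the groups (two-sided exact permutation p = 0.0397, unadjusted, on an interval chosen from the gain).

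The short loss ran from 79233251 to 79234978 (1.73 kb) and had 6 probes. In Ikzf1+/+ tumour 1 they lay, in order, at -0.34, -0.98, -0.024, -0.27, -0.73 and -0.97. Over the same probes Ikzf1+/+ tumours 1 to 5 averaged -0.55, +0.12, -0.20, -0.13 and +0.042, and Ikzf1+/- tumours 1 to 5 +0.057, +0.056, +0.11, -0.060 and +0.019. No other tumour came near the value of Ikzf1+/+ tumour 1. The 2 probes at -0.98 and -0.97 were not well above background on all arrays, with Cy5 signals of 24.0 and 28.3 in that tumour. The other 4 averaged -0.34 there.

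Single probes were compared between genotypes with limma over all 382486 autosomal probes tested. In the window 4 of 1533 probes (0.261%) differed at an adjusted p under 0.05, 1 higher and 3 lower in Ikzf1+/- tumours, against a background of 0.0884% over all probes (0.0178% higher and 0.0706% lower). All 4 lay in the flanks. Of the 908 probes of the body 0 passed, with 76 (8.37%) at an unadjusted p under 0.05, against 8.53% of all probes, and the lowest adjusted p was 0.128. In the proximal flank 30 of 319 probes (9.4%) and in the distal flank 14 of 305 (4.59%) reached that unadjusted p.

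The largest difference was at probe A_67_P17422025, from 79056930 to 79056974 within the interval called as a gain in Ikzf1+/+ tumour 1. Its log2 ratios were +2.43, +1.50, +0.65, +2.29 and +1.04 in Ikzf1+/+ tumours 1 to 5. In Ikzf1+/- tumours 1 to 5 they were -1.18, -0.25, -0.74, -0.49 and -0.37. The difference was -2.19 (limma adjusted p = 0.00384). Probe A_67_P17423755, from 79462858 to 79462902 in the distal flank, had +2.29, +1.41, +0.71, +2.15 and +1.00 against -0.76, +0.013, -0.47, -0.26 and -0.11, a difference of -1.83 (limma adjusted p = 0.00622). On both probes the Ikzf1+/+ tumours lay in the same order, with tumours 1 and 4 highest and tumour 3 lowest.

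These probes stand 406 kb apart, on opposite sides of Nf1, and their values over the 10 arrays had a Pearson correlation of 0.9993. Within each genotype it was 0.9994 and 0.9932 over 5 arrays, on the same arrays and in the same DNA. Both were bright and short, with Cy3 signals 17.6 and 23.1 times the autosomal median and 45 bases each. On the first, Cy5 was 6490 ± 1780 intensity units in Ikzf1+/+ and 3293 ± 686 in Ikzf1+/- arrays (mean ± SD of 5 arrays, exact permutation p = 0.00794), and Cy3 was 2859 ± 149 and 3130 ± 359 (exact p = 0.159). On the second, Cy5 was 8556 and 4999 (exact permutation p = 0.0159) and Cy3 4010 and 3842 (exact p = 0.389). These are background-subtracted signals before dye normalisation and centring, on arrays whose autosomal Cy5 medians also differed between genotypes, so they do not add up to the log2 differences. The other 8 probes of the window with a mean Cy3 signal over 2000 intensity units differed by -0.27 to +0.17. The pattern was not particular to this locus. Over all autosomes 74 probes differed by less than -1.5, these 2 among them. Of the 74, 71 had a Pearson correlation over 0.9 with the mean of the pair over the same 10 arrays. Choice by difference partly fixes this, and the 2 probes themselves enter the mean that they are set against.

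The other 2 called probes lay in the distal flank. Probe A_67_P17423731, from 79458895 to 79458939, had +0.43, +0.30, +0.37, +0.32 and +0.38 in Ikzf1+/+ tumours 1 to 5. In Ikzf1+/- tumours 1 to 5 it had -0.25, -0.22, -0.043, -0.084 and -0.054, a difference of -0.49 (limma adjusted p = 0.0418). Probe A_67_P07411375, from 79431194 to 79431253, was the one called higher, by +0.73 (limma adjusted p = 0.0327). It had -0.45, -0.54, -0.11, -0.41 and -0.46 in the Ikzf1+/+ tumours and +0.42, +0.20 and +0.38 in Ikzf1+/- tumours 1, 2 and 5, with tumours 3 and 4 left out as outlier spots. Without the brightest probes of the array 2 probes of the window passed (0.131%, against 0.0838% of all probes), and after normexp correction 30 did (1.96%, against 0.555%). Without any 1 tumour other than Ikzf1+/+ tumours 3 and 5, 2 passed (0.13%, against 0.0254% to 0.101% of all probes).

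Runs of 5 consecutive probes gave a second view at a scale of about 1 kb. Of 305 runs 2 (0.656%) differed between genotypes in limma, both lower in Ikzf1+/- tumours, against a background of 0.165% over 76491 runs (0.129% lower). They ran from 79056331 to 79057086, with a difference of -0.48 (limma adjusted p = 0.0345), and from 79461768 to 79462902, with -0.35 (limma adjusted p = 0.0359). Each held 1 probe of the pair. Without that probe the other 4 differed by -0.043 (exact permutation p = 0.484) and by +0.025 (exact p = 0.278). Without the brightest probes, with medians over a run, or with runs of 10 probes, 0 runs of the window passed, against 0.11%, 0.0144% and 0.0654% of all runs. The count was also 0 without Ikzf1+/+ tumour 4 or 5 (against 0.0797% and 0.0784%) or any 1 Ikzf1+/- tumour (against 0.0144% to 0.0314%). It was 1 (0.328%) without Ikzf1+/+ tumour 1 or 2, against 0.0771% and 0.137%. The share over all runs was thus also lower in each of these settings. After normexp correction 36 passed (11.8%, against 2.27% of all runs), 31 higher and 5 lower.

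None of the 180 runs of the Nf1 body passed (0 in limma, with 14 or 7.78% at an unadjusted p under 0.05 against 12.2% of all runs, of which 12 were higher and 2 lower in Ikzf1+/- tumours, and a lowest adjusted p of 0.111). The median difference over these runs was +0.020, against -0.034 over 63 proximal and -0.0072 over 60 distal runs. The largest differences in the body were +0.31 at 79278020 to 79278794 (limma adjusted p = 0.343), +0.24 at 79166160 to 79167347 (limma adjusted p = 0.111) and +0.23 at 79247760 to 79249234 (limma adjusted p = 0.166). In the other direction they were -0.21 at 79354895 (limma adjusted p = 0.441), -0.16 at 79174799 and -0.13 at 79152362.

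Counted by overlap, 7 of 305 runs (2.3%) had every Ikzf1+/- tumour below every Ikzf1+/+ tumour, against 1.47% of all autosomal runs. All 7 lay in the 123 runs of the flanks (5.69%), 6 of them proximal. The proximal runs starting at 79056331 and 79061464 lay in the interval called as a gain in Ikzf1+/+ tumour 1. That at 79067829 crossed its end, and those at 79093567, 79100977 and 79120568 lay beyond it. The run at 79056331 also held the bright probe at 79056930. Every Ikzf1+/- tumour lay above every Ikzf1+/+ tumour in 2 runs (0.656%), against 1.32% of all autosomal runs. Both lay in the 180 runs of the body (1.11%), a share near that of all runs. One of these, at 79166160, had -0.084, +0.043, -0.12, -0.046 and -0.19 in Ikzf1+/+ tumours 1 to 5. The Ikzf1+/- tumours had +0.17, +0.20, +0.055, +0.32 and +0.080. The lowest Ikzf1+/- value there exceeded the highest Ikzf1+/+ value narrowly.

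Tumour DNA of both genotypes together was also set against non-leukemic DNA. Of 305 runs 25 (8.2%) differed from 0 in limma, 20 higher and 5 lower, against a background of 9.97% over all runs (4.67% higher and 5.29% lower). In the window 6.56% were higher and 1.64% lower, so lower runs made up a smaller share than over all runs and higher runs a larger one. The body held 8 of them in 180 runs, the proximal flank 10 in 63 and the distal flank 7 in 60. The share of the body thus lay below that of all runs, and those of the flanks above it. The lowest run lay in the body from 79265988 to 79267218 at -0.20 (limma adjusted p = 0.0113), below 0 in 9 of 10 tumours. It had -0.056, -0.18, -0.45, -0.60 and -0.26 in Ikzf1+/+ tumours 1 to 5. The Ikzf1+/- tumours had -0.18, +0.12, -0.15, -0.19 and -0.068. The next lowest, at 79258227 to 79259291, did not pass (-0.14, limma adjusted p = 0.121), and the third, at 79223538 to 79224265, did (-0.13, limma adjusted p = 0.0485). The body runs at 79213049 (-0.11, limma adjusted p = 0.0302) and 79277093 (-0.11, limma adjusted p = 0.0204) also passed, the latter below 0 in 10 of 10 tumours, as did the proximal run at 79079742 (-0.078, limma adjusted p = 0.0453).

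The highest run was that of the proximal bright probe at +0.15 (limma adjusted p = 0.0323), above 0 in 5 of 10 tumours, all Ikzf1+/+. The runs at 79058572 to 79059829 (+0.13, limma adjusted p = 0.0143) and 79433727 to 79434514 (+0.12, limma adjusted p = 0.00492) followed, both above 0 in 10 of 10 tumours. The last of these ranged from +0.063 to +0.18 in Ikzf1+/+ and from +0.069 to +0.21 in Ikzf1+/- tumours, so the genotypes overlapped. The other 17 runs that passed and were higher lay between +0.068 and +0.12. Those of the body started at 79183701, 79268161, 79328216 and 79394227. Those of the proximal flank started at 79055211, 79057195, 79067829, 79084600, 79100977, 79121562 and 79135725, and those of the distal flank at 79400153, 79420355, 79424050, 79448549, 79460534 and 79466729. After normexp correction 73 runs passed (23.9%, against 17.9% of all runs), and with medians over a run 9 did (2.95%, against 5.46%). The count of 25 fell to 8 without Ikzf1+/- tumour 4 (2.62%, against 5.44% of all runs) and to 9 without Ikzf1+/+ tumour 5 (2.95%, against 5.62%). It was 16 without Ikzf1+/+ tumour 2 (5.25%, against 7.56%). Without any other Ikzf1+/- tumour it was 11 to 14 (3.61% to 4.59%, against 5.77% to 6.44%). The share over all runs thus fell as well.

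Values below the level of a copy loss were seen at single probes of the body and not in the mean of any of its 5-probe runs. In the body 43 of 9079 values (0.474%) lay below -1, against 0.095% of autosomal values. All 43 came from the 84 probes that were not well above background on all arrays, and 0 of 8239 values came from the other 824. That filter uses the tumour's Cy5 signal as well as Cy3, so a low ratio can itself place a probe among the 84. The split was thus partly fixed beforehand. It passed 90.7% of body probes and 98.3% of autosomal probes, so the shares below -1 come from unlike sets of probes. By genotype 35 of the 43 values were in Ikzf1+/+ and 8 in Ikzf1+/- tumours. Above +0.58 the body had 55 values in Ikzf1+/+ and 44 in Ikzf1+/- tumours. The SD over all autosomal probes was also larger in Ikzf1+/+ arrays, 0.233 to 0.271 against 0.179 to 0.231. Autosomal values below -1 were not counted by genotype. The lowest run of the body in each tumour lay at -0.47, -0.44, -0.45, -0.60 and -0.38 in Ikzf1+/+ tumours 1 to 5, and at -0.20, -0.26, -0.44, -0.46 and -0.29 in Ikzf1+/- tumours 1 to 5. None reached -1, while the lowest run of the autosomes lay between -4.10 and -0.66 in the same arrays.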

How the data were processed

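The deposited scanner files give processed Cy5 and Cy3 intensity per spot. Per the file headers these come from Agilent Feature Extraction 10.7.3.1 with build mm9; the submitters' processing notes name version 10.5.1.1 of that software. The deposited series matrix holds log2 ratios of Cy5 over Cy3, uncentred, as comparison with the scanner's deposited log10 ratio showed (slope 1.00).

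Here log2 of Cy5 over Cy3 was computed for 412783 spots that were not controls. Outlier spots were left out, spots of a probe averaged and each array centred on its autosomal median. Means over probes were compared over 10 arrays by two-sided exact permutation (252 splits) or sign-flip tests, with Benjamini-Hochberg adjustment. Probes and consecutive runs of 5 were tested with limma 3.58.1 (R 4.3.3, lmFit and eBayes) over all autosomes, at an adjusted p of 0.05. Chromosome 11 was segmented with a penalised change-point search (numpy 2.4.6, Python 3.11.15). The procedures were tested on simulated data. The number of arrays limits precision. Normexp used an offset of 50 on median spot signals. The rule for named items took every probe or run that passed, the 3 lowest and highest runs, the 3 largest body differences where none passed, and the 5 other 100 kb windows most like the body. The members, limits, lists and tests were chosen with earlier results of these data known. A RAS pathway list was not analysed here, since no gene names of probes were used.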

Additional observations from a re-analysis of the deposited data

How the results depend on the processing

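Normexp correction reversed 3 differences between genotypes: body minus flanks (-0.13), proximal flank (+0.10) and distal flank (+0.22). With it the body passed the threshold (+0.035), as did the body against the proximal flank in all tumours (-0.063), and counts were 30 probes and 36 runs by genotype, 73 runs against non-leukemic DNA and 0 tumours with a segment in the body. The cause was not tested. Centring on chromosome 11 gave +0.039 for the body, -0.030 for the proximal flank, +0.0050 for the distal flank and 1 run by genotype (0.328%, against 0.0758% of all runs). Over full-length probes, an alternative chosen after seeing the data, the proximal flank differed by -0.046 (exact p = 0.0794) and the distal flank by +0.017. Medians over probes gave -0.014 for the distal flank (exact p = 0.0317), the series matrix values -0.013 (exact p = 0.0476) and loess +0.0019. On the shared slide the distal flank differed by -0.023 and body minus flanks by +0.070. Without the brightest probes, also chosen after seeing the data, 2 probes and 0 runs passed. Medians within runs gave 0 runs by genotype and 9 against non-leukemic DNA, and runs of 10 probes gave 0. Over probes above background, also chosen after seeing the data and by a filter that uses tumour Cy5 signal, 0 tumours had a segment in the body.

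Leaving out each array in turn gave +0.017 to +0.032 for the body, -0.056 to -0.034 for the proximal flank, -0.015 to -0.0085 for the distal flank and +0.045 to +0.057 for body minus flanks. For the proximal flank and for body minus flanks, all 10 fits had exact permutation p = 0.0159. That is the smallest p the remaining arrays allow. It was fixed beforehand, since the genotypes did not overlap in these measures. Over all tumours the ranges were -0.027 to -0.015 against both flanks, -0.030 to -0.016 against the proximal and -0.024 to -0.013 against the distal flank. By genotype, counts ran from 2 to 6 probes (0.13% to 0.391%, against 0.0254% to 0.185% of all probes). They ran from 0 to 3 runs by genotype (up to 0.984%, against 0.0144% to 0.458% of all runs). Against non-leukemic DNA they ran from 8 to 26 runs (2.62% to 8.52%, against 5.44% to 11.5%).

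With replicate number as a block, the paired differences kept their size, -0.047 for the proximal flank and +0.052 for body minus flanks. Each had exact permutation p = 0.0625, the smallest that 5 pairs allow. In limma with that block 1 run passed (0.328%, against 0.114% of all runs). Same-numbered tumours had r = 0.026, 0.012, -0.0079, -0.013 and 0.12, against -0.073 to 0.039 for other pairs. The fifth pair lay above that range and the other 4 within it, so the numbers were not taken to pair the tumours. Of 5 Ikzf1+/- tumours 2 correlated best with their own number. These r can be compared only with each other. Plain correlations between tumours of different genotype ran from 8.92e-05 to 0.315 over autosomal runs. The comparison of RAS pathway genes was not run. With 84 body probes near background, low Cy5 signal limits what single probes show.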

Other observations

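The 5 windows of 100 kb off chromosome 11 whose values followed the Nf1 body most closely over the 10 arrays, of 17294 searched, started at 60400001 and 14900001 on chromosome 3, 135800001 on chromosome 7, 129500001 on chromosome 10 and 37000001 on chromosome 2. Pearson correlations were 0.94, 0.907, 0.938, 0.917 and 0.903, over arrays that share their DNA and signal levels with the body. They are the highest of 17294 correlations over 10 arrays, so the search itself picks high values, and they were not tested. The window at 60400001 was itself densely tiled, with 336 probes, and had means of -0.061 in Ikzf1+/+ and -0.016 in Ikzf1+/- tumours.

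By probe length, body minus both flanks differed between genotypes by +0.035 over probes of 45 to 54 bases, +0.051 over 55 to 59 and +0.057 over 60. In the same classes the flanks differed by -0.030, -0.031 and -0.028, and all autosomal probes by -0.027, -0.017 and +0.0052. Over the 305 runs of the locus the median Pearson correlation was 0.206 between the 20 pairs of tumours of one genotype and 0.0602 between the 25 pairs of different genotype, against 0.241 and 0.149 over 76491 autosomal runs.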
